A study of Homo sapiens with 31 samples.

Results

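EVI1 binding in unmodified MUTZ3 cells was compared with EVI1 binding in untreated MUTZ3 cells that carry an inducible vector, to describe which sites were called again in a separate experiment. The members were all EVI1 peaks of 3 lists, 1 of unmodified cells and 2 of inducible cells, on the 22 autosomes, X and Y, leaving out haplotype contigs and a stretch of chromosome 6 around the histocompatibility genes. This gave 142310 peaks of the 533140 in the 13 deposited lists of the series: 21486 in unmodified cells, 50296 in inducible replicate 1 and 70528 in inducible replicate 2. The shared sites were described by rank, width, distance to a transcription start site (TSS) and gene.

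MUTZ3 is an acute myeloid leukaemia cell line in which a rearrangement of chromosome 3 switches on EVI1. The unmodified cells were untreated parental MUTZ3. The inducible cells were a bulk population transduced with a lentiviral pCW vector holding 4xPLDLS, a peptide with 4 copies of the CTBP-binding motif under a doxycycline promoter, and were kept without doxycycline for 72 h. All 3 libraries were made with the same EVI1 antibody after double crosslinking with DSG, an agent that joins proteins to each other before formaldehyde joins them to DNA. The unmodified library had its own DSG input control, whereas the 2 inducible EVI1 libraries shared 1 untreated input control with each other and with the CTBP2 libraries of those cells. The experiment, the vector and the control therefore cannot be told apart in any difference between unmodified and inducible lists. The paper's methods text names more than 1 library kit, and either single-end or paired-end sequencing, for its ChIP-seq. It does not assign them to libraries, and their part in any difference was not tested. With 1 list against 2, no test between them was run, because the smallest p-value that reassigning lists allows is far above any usual threshold. Shares are given with Wilson 95% intervals, which cover only the counting of peaks, and with the spread between the 2 inducible lists. The number of reads behind each list is unknown, and the labels do not say whether the replicates were separate cultures.

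EVI1 is a zinc finger transcription factor encoded by MECOM. It has 2 separate groups of zinc fingers that read different DNA sequences, and it keeps blood stem cells from maturing. It recruits CTBP1 and CTBP2, corepressors that bring histone-modifying enzymes to chromatin, through a PLDLS motif.

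The 61 bases around the summit are shown for sites that stood at the ends of the comparison, read from the plus strand of GRCh37 (hg19). The first 4 belong to the strongest unmodified peaks called in both inducible lists, and capitals mark GGAAGT or ACTTCC, the letters of an ETS site on either strand. The ZMIZ1 site was the strongest peak of both inducible lists and ranked 5 in the unmodified list. Each site carries the name of the closest protein-coding gene, by TSS.
ZMIZ1, chr10:80713073-80713133: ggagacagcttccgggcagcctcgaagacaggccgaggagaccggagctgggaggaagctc
GTF3C5, chr9:135878563-135878623: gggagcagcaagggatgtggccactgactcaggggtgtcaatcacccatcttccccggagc
LY86, chr6:6592467-6592527: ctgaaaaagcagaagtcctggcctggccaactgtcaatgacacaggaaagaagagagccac
ARL6IP5, chr3:69132159-69132219: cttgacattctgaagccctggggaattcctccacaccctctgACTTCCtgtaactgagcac

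The next 3 belong to the strongest unmodified peaks with no peak in either inducible list. Capitals mark ETS letters as above, TGTGGT or ACCACA of a RUNX site, and AGATAA or TTATCT of a GATA site. In these windows 41.0 to 49.2% of the bases were G or C, against 50.8 to 67.2% in the 4 shared windows. Over the 101 bases used in the results below, the ranges overlapped. The TNP1, IL18RAP and TDO2 sites then had 44.6, 41.6 and 43.6%. The shared LY86 site had 43.6%, and the ZMIZ1, GTF3C5 and ARL6IP5 sites had 59.4, 64.4 and 54.5%.
TNP1, chr2:218181627-218181687: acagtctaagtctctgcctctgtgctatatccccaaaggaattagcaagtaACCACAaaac
IL18RAP, chr2:103035025-103035085: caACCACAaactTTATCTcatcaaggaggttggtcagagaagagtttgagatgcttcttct
TDO2, chr4:156731170-156731230: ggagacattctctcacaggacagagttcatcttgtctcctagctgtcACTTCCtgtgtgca

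The last 3 belong to the strongest sites that both inducible lists held and the unmodified list lacked. In the CSF2RA window capitals mark RUNX and GATA letters. In the SPDYE9 and SPDYE10 windows they mark a run of 37 bases that both windows hold, on opposite strands.
CSF2RA, chrX:1368627-1368687: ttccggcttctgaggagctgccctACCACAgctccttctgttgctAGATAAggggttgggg
SPDYE9, chr7:74914409-74914469: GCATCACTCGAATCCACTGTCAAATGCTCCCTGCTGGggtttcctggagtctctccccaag
SPDYE10, chr7:72522442-72522502: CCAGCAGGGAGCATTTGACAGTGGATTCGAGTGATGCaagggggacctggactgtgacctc

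Most EVI1 peaks of unmodified cells were called again. Of the 21486 peaks, 17434 overlapped a peak of both inducible lists by at least 1 base, which is 81.1% (95% interval 80.6 to 81.7). A further 1675 peaks (7.80%) were called only in inducible replicate 1, 433 (2.02%) only in inducible replicate 2 and 1944 (9.05%) in neither. Replicate 1 held 88.9% of the unmodified peaks and replicate 2 held 83.2%, a mean of 86.0% ± 4.09 (SD, n = 2). Replicate 2 was the longer list and yet held fewer of them.

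The reverse share was much lower, and the inducible lists were the longer ones. Overlapping peaks of the 2 inducible lists formed 39523 sites called in both, and 15312 of these (38.7%, 95% interval 38.3 to 39.2) were called in unmodified cells. Of the peaks of replicate 2 taken alone, 22.2% were called in unmodified cells, and of those of replicate 1 alone 33.8%. At equal list size the order of the shares turned, with 57.9% of unmodified peaks in both inducible lists and 66.4% of the sites of both inducible lists in the unmodified list. These shares differ in kind, since an unmodified peak had to meet both inducible lists and a site only 1 list. List by list the order did not turn. The unmodified peaks were found in replicates 1 and 2 at 68.6 and 66.0%, against 59.8 and 56.1% in reverse. Merging all 3 lists gave 79870 sites, of which 15311 were called in all 3, 24211 in both inducible lists only and 1944 in unmodified cells only. Of the sites in all 3 lists, 1985 held at least 2 separate unmodified peaks and 305 held at least 3.

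The lists were then compared at 1 length, taking the strongest 21486 peaks of each by fold enrichment, the ratio of ChIP signal over the local background given by the peak caller. This kept the whole unmodified list, down to a fold enrichment of 1.63, and cut the inducible lists at 6.61 and 7.87. At this size, 68.6% of the unmodified peaks were in inducible replicate 1 and 66.0% in replicate 2, while 59.8% and 56.1% of the inducible peaks were in the unmodified list. Averaged over both directions, unmodified cells shared 62.6% ± 2.22 (SD, n = 2) with an inducible list, and the 2 inducible replicates shared 75.3% with each other. The difference was -12.7 percentage points. The SD covers only the 2 inducible lists set against the same unmodified list. The 75.3% comes from 1 pair, which shares its input control, and has no spread. The 2 EVI1 lists of the same cells after doxycycline gave a second measure: unmodified cells shared a mean of 64.2% with them, and the 4 pairs of untreated and doxycycline lists shared 67.1 to 72.7%. Averaged over both directions, each pair within the inducible experiment thus shared more than any pair across experiments, whether or not doxycycline differed.

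Among the strongest peaks, presence was shared more than rank. Of the 100 strongest unmodified peaks, all 100 were called in inducible replicate 1 and 99 in replicate 2, but only 24 and 22 were also among the 100 strongest there. For the 1000 strongest, 991 and 936 were called, and 483 and 429 were among the 1000 strongest. Between the inducible replicates, 72 of the 100 and 695 of the 1000 strongest of replicate 1 were in the same top group of replicate 2. Over the 17434 peaks called in all 3 lists, the Spearman correlation across peaks of the fold enrichment was 0.436 between unmodified cells and replicate 1, 0.303 with replicate 2 and 0.757 between the 2 replicates, which share their input control. Peaks within 1 kb of a TSS gave 0.362, 0.351 and 0.821 for the same pairs. The 17434 peaks lay in at most 15311 merged sites, so several could take their value from the same wide inducible peak.

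The peaks of highest fold enrichment in unmodified cells show this range. The first was an intronic peak 4156 bases downstream of the start of LY86, which encodes a partner of a Toll-like receptor homologue of B cells, at chr6:6592052-6592789. It had a fold enrichment of 59.6 in unmodified cells and 12.4 in inducible replicate 2, and it ranked 1 in unmodified cells, 893 in replicate 1 and 10546 in replicate 2. The peak upstream of ZMIZ1, a transcriptional coactivator of the PIAS family, moved the other way. At chr10:80712747-80713531, it had fold enrichments of 51.9, 98.4 and 155, and it ranked 5, 1 and 1.

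The peak near GTF3C5, a subunit of the RNA polymerase III factor TFIIIC, spanned 2118 bases at chr9:135878187-135880304. Its fold enrichments were 51.4, 83.7 and 134, and it ranked 6, 5 and 2. An intergenic peak nearest to KCNU1, a potassium channel gene, was 281218 bases from its start and had fold enrichments of 53.8, 71.9 and 59.5, with ranks of 4, 15 and 196. The ZMIZ1, GTF3C5 and KCNU1 peaks stood among the 200 strongest of every list.

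The other 4 of the 8 strongest shared peaks lay nearest to C9orf78, CLIP2, CMPK2 and ARL6IP5. The C9orf78 peak, in an exon of another annotated gene at 52969 bases from that start, had fold enrichments of 59.0, 49.4 and 75.1 and was also among the 200 strongest of every list. The peak 16736 bases upstream of CLIP2, a microtubule-binding linker protein, had 55.7, 37.2 and 43.4. The peaks near CMPK2, a mitochondrial nucleotide kinase, and ARL6IP5, a membrane protein of the endoplasmic reticulum, fell far down the list of replicate 2 only. Their ranks were 7, 90 and 5885 for CMPK2. For ARL6IP5 they were 8, 257 and 5217. All 8 peaks were also called in both doxycycline EVI1 lists and in the 3 untreated CTBP2 lists of MUTZ3, and 1 of the 8 lay within 2 kb of a TSS.

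Reproduction did not rise evenly with rank. From the weakest to the strongest quintile of unmodified peaks by fold enrichment, 82.9, 76.0, 76.8, 81.5 and 88.6% were called in both inducible lists, so the lowest share was in the second quintile. The strongest and weakest quintiles differed by 5.68 percentage points in the share called in both lists, and by 7.40 points in replicate 1 alone and 3.07 in replicate 2 alone. The size of this difference depended on the setting. It was 17.2 points when peaks were ranked by the −log10 p-value, 21.0 among peaks with a fold enrichment of at least 5, 24.4 at equal list size and 27.2 when a shared peak had to have its summit within 200 bases. In the strongest quintile, replicate 1 held 96.4% of the peaks and replicate 2 held 88.8%. Seen from the inducible side, strength separated more sharply. Of the sites of both inducible lists, 13.3% in the weakest quintile and 83.5% in the strongest were called in unmodified cells, where a site's strength is the worse of its 2 ranks.

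Width went with reproduction more evenly. From the narrowest quintile (134 to 153 bases) to the widest (321 to 3186 bases), 65.0, 76.5, 80.4, 88.4 and 95.4% of unmodified peaks were called in both inducible lists. The difference between the end quintiles was 30.4 percentage points for the share called in both lists, 24.5 points for replicate 1 alone and 25.9 for replicate 2 alone. Peaks called in both had a median width of 222 bases and those called in neither 157 bases, while their median fold enrichments were 5.92 and 5.39. At shared sites the inducible peaks were wider, with medians of 794 bases in replicate 1 and 936 in replicate 2. The summits lay a median of 51 and 63 bases apart from the unmodified summit, against 40 bases between the 2 replicates. The narrowest peak of the whole list also differed, with 134 bases in unmodified cells, 221 in replicate 1 and 238 in replicate 2. The cause of the width difference between lists was not tested.

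By overlap of at least 1 base, EVI1 peaks near gene starts were almost all called again. Of the 5112 unmodified peaks within 1 kb of a TSS, 97.3% (95% interval 96.8 to 97.7) were called in both inducible lists. The share was 84.9% from 1 to 10 kb, 76.7% from 10 to 100 kb and 64.6% beyond 100 kb. Peaks within 1 kb exceeded all farther peaks by 21.2 percentage points in the share called in both lists, by 12.1 points in replicate 1 alone and by 19.9 in replicate 2 alone. Within each quintile of fold enrichment the near share was 95.9 to 98.6% and the far share 68.4 to 86.8%. The difference was 4.10 points when a shared peak had to have its summit within 200 bases. By that rule 61.6% of all unmodified peaks were called in both lists, so the near share was also far below 97.3%. Among peaks beyond 1 kb, 86.7% of those in exons, 75.9% of those in introns and 74.3% of those between genes were called in both.

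**Figure D1:**
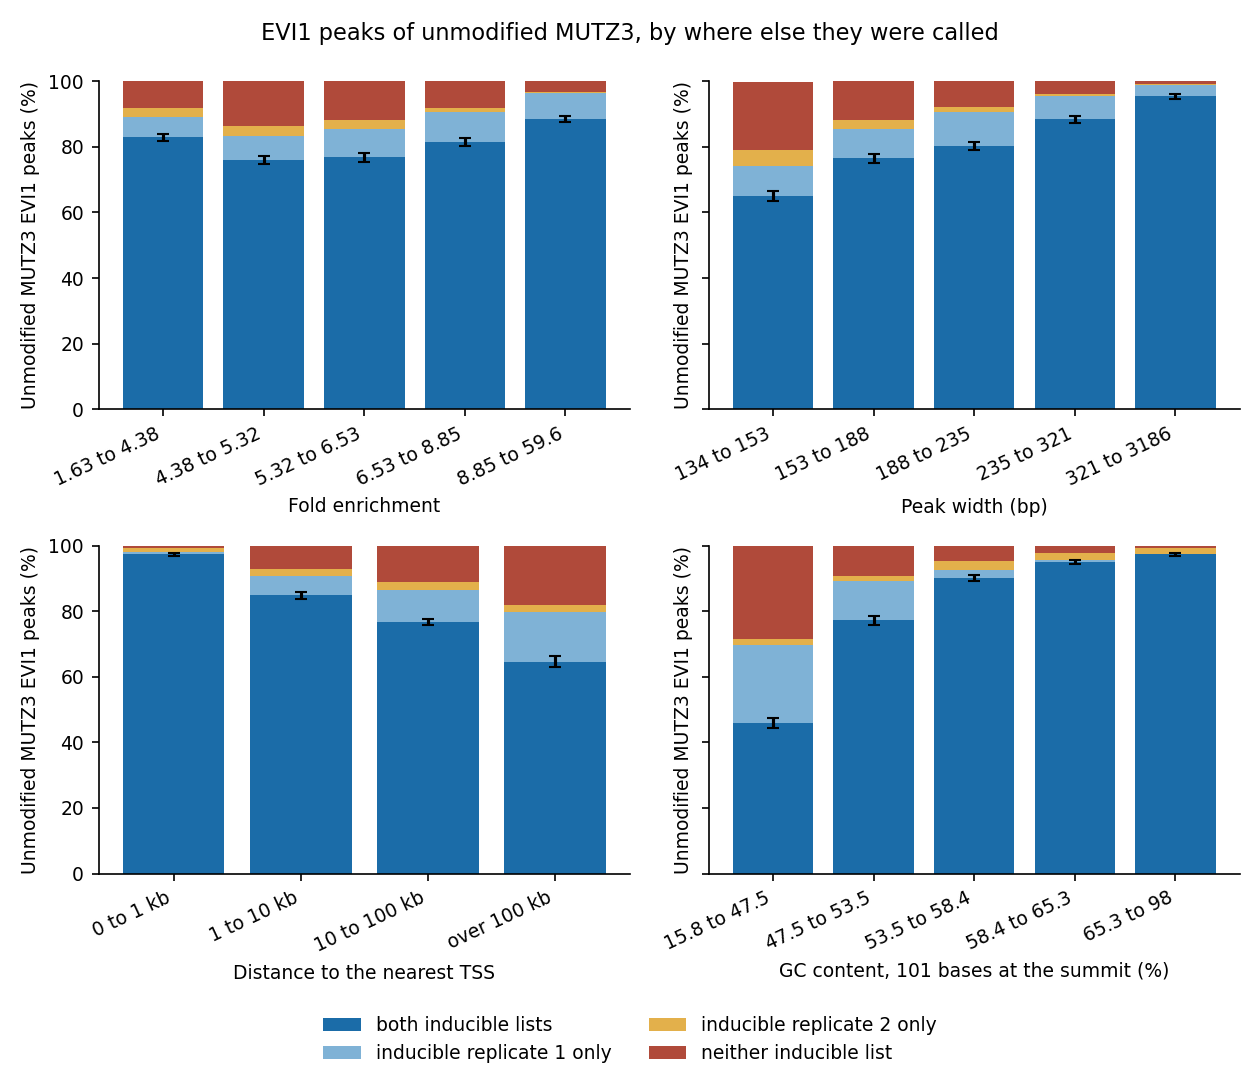
Percentage of unmodified EVI1 peaks called in both, 1 or neither of the inducible lists, by quintiles of fold enrichment, width and GC content and by distance to the nearest TSS. Error bars are Wilson 95% intervals of the share called in both. That share rises from 65.0 to 95.4% with width and from 46.0 to 97.4% with GC content, and falls from 97.3 to 64.6% with TSS distance.

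Base composition moved with reproduction, and its part in the results above was not tested. The 101 bases around the summit of an unmodified peak were on average 58.4% G or C for peaks called in both inducible lists and 46.3% for peaks called in neither. Peaks called only in inducible replicate 1 had 46.4%, and those called only in replicate 2 had 56.5%. From the lowest to the highest quintile of GC content, 46.0, 77.2, 90.0, 95.1 and 97.4% of peaks were called in both. The 2 inducible lists parted in the lowest quintile, below 47.5% G or C, where replicate 1 held 69.8% of the unmodified peaks and replicate 2 held 47.8%, and in the highest quintile they held 97.5 and 99.2%. In the 10000 strongest peaks of each list the mean was 55.0% in unmodified cells, 57.7% in replicate 1 and 61.5% in replicate 2.

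Peaks within 1 kb of a TSS averaged 64.3% G or C and farther peaks 53.9%. Within the lowest quintile of GC content, 73.7% of the 190 near peaks and 44.7% of the 4107 far peaks were called in both, and in the highest quintile 98.7% and 95.7%. Averaged over the quintiles the difference was 13.1 percentage points. The width difference averaged in the same way was 27.1 points and the fold enrichment difference 9.66 points. The sites that only the inducible lists held did not share this composition. Their mean of 59.2% was close to the 58.6% of the inducible sites called in unmodified cells, with SDs of 9.15 and 8.99 across sites.

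**Figure D2:**
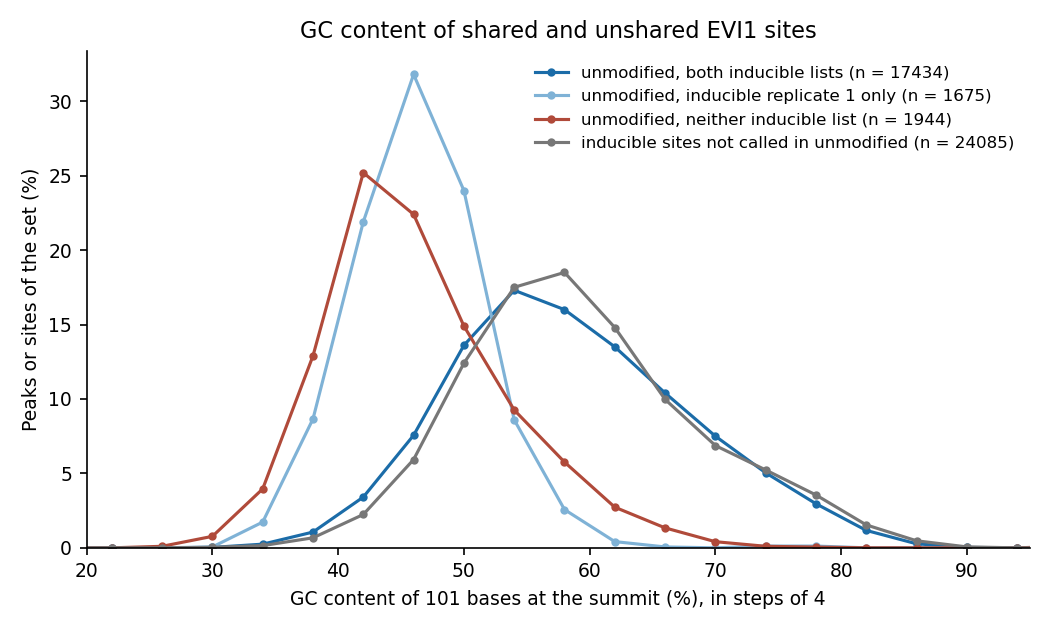
Distribution of the GC content of 101 bases at the summit, in steps of 4%, for unmodified peaks by where they were called and for sites of both inducible lists that unmodified cells lacked. Peaks called in neither list or only in replicate 1 lie to the left, with means of 46.3 and 46.4%, and the other sets to the right, with means of 58.4 and 59.2%.

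Short words for 5 motifs were counted, on either strand, in the 101 bases around each summit, and in windows of the same length 2 kb to either side of the unmodified summits. GGAAGT, the core of many ETS factor sites, was in 21.2% of the peaks called in both inducible lists, 28.4% of those in replicate 1 only and 21.5% of those in neither, against 5.49% of the side windows. TGTGGT, the RUNX core, was in 13.4, 22.8 and 17.5%, against 7.16%. Both words were more frequent than beside the peaks whether or not the peak was called again. The side windows were not matched to the peaks for GC content. AGATAA, bound by GATA factors, was in 6.46, 14.1 and 11.5%, against 5.74%.

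The exact words counted for EVI1 itself were rare, but they are longer than the ETS, RUNX and GATA words and so match less often by chance. Variants of these words were not counted, so their rarity does not show that sequences bound by EVI1 were rare. Their percentages are set beside the side windows, with the limit that GC content was not matched. They cannot be set against those of the shorter words. ACAAGATA, bound by the first group of zinc fingers, was in 0.470% of peaks called in both, 1.25% of those in replicate 1 only and 1.03% of those in neither, against 0.254% of side windows. It ends in AGATA, and 47 of the 124 unmodified windows that held it also held AGATAA. GAAGATGAG, bound by the second group, was in 0.493, 0.299 and 0.514%, against 0.142%. Peaks called in both and in neither were also compared within the lowest quintile of GC content and beyond 1 kb from a TSS. There AGATAA was in 17.6% (16.0 to 19.5) and 15.0% (13.1 to 17.1). TGTGGT was in 23.5% (21.6 to 25.5) and 20.2% (18.1 to 22.6), and ACAAGATA in 1.47% (1.01 to 2.13) and 1.50% (0.950 to 2.36). GGAAGT was in 28.4% (26.4 to 30.5) and 23.6% (21.3 to 26.0). In the next quintile of GC content TGTGGT was in 22.4% (20.9 to 23.9) and 14.7% (11.5 to 18.5). GGAAGT was there in 25.7% (24.1 to 27.3) and 23.4% (19.5 to 27.8). These intervals cover only the counting of peaks, and no difference between the shares was tested. A match is a description of the letters and does not show which factor was bound.

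The strongest unmodified peaks missing from both inducible lists began at rank 582. An intergenic peak at chr2:218181536-218181771, 456870 bases upstream of TNP1, a gene of sperm chromatin, had a fold enrichment of 19.0 in unmodified cells. A peak 94 bases upstream of the start of IL18RAP, which encodes a subunit of the interleukin 18 receptor, had 17.4 at chr2:103034936-103035310 and was 41.6% G or C. It was 1 of only 43 such peaks within 1 kb of a TSS that neither list held.

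The other 4 of the 6 strongest lay nearest to ANKRD13A, CNTN5, BBS5 and TDO2, with fold enrichments of 17.4 to 18.6 and ranks of 627 to 766. All 6 were single-copy sequence of 38.6 to 44.6% G or C. None of the 6 was called in either doxycycline EVI1 list, but 4 of them, near ANKRD13A, CNTN5, IL18RAP and TDO2, were called in the CTBP2 list of unmodified cells. The CNTN5 and TNP1 peaks were also called in CTBP2 replicate 2 of the inducible cells.

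Over all 1944 unmodified peaks in neither untreated inducible list, 401 (20.6%) were in at least 1 doxycycline EVI1 list, and 144 (7.41%) in both. The CTBP2 list of unmodified cells held 18.8% of the 1944 (95% interval 17.2 to 20.6), and 46.5% of the peaks called in both inducible lists (45.8 to 47.3). In the strongest quintile by fold enrichment these shares were 47.9% of 146 peaks and 76.4% of 3808 peaks. In inducible cells the 2 CTBP2 lists differed from each other: CTBP2 replicate 1 held 4.17% of the 1944 peaks and CTBP2 replicate 2 held 31.3%. The same split was seen at the 1675 peaks that only EVI1 replicate 1 held, where CTBP2 replicate 1 had 22.9% and CTBP2 replicate 2 had 83.9%. At the 433 peaks that only EVI1 replicate 2 held the order was the opposite, with 249 in CTBP2 replicate 1 and 160 in CTBP2 replicate 2. Mean GC content at the summit was 59.7% over the peaks of CTBP2 replicate 1 and 55.7% over those of replicate 2, and its part in the split was not tested.

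At the other end, the strongest sites that only the inducible lists held were mostly in sequence that occurs more than once in the genome. A site was counted as having several copies where its central 50 bases occurred at least 2 times in GRCh37 on either strand, or where it lay in the pseudoautosomal regions that X and Y share. By this measure 75 of the 100 strongest inducible-only sites had several copies, 279 of the strongest 1000 and 2342 of all 24211 (9.67%). Among inducible sites called in unmodified cells it was 30 of the strongest 1000 and 213 of 15312 (1.39%), and among all unmodified peaks 78 of 21485 (0.363%). Of the 2555 inducible sites with several copies, 8.34% were called in unmodified cells, against 40.8% of the 36968 with 1 copy.

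In the strongest quintile these shares were 26.8 and 86.8%. The pseudoautosomal regions held 249 inducible sites and no unmodified peak, which allows a share of up to 1.52% by the Wilson interval. The haplotype contigs, left out here, likewise held 821 and 1186 deposited inducible peaks and no unmodified peak, and the excluded stretch of chromosome 6, which the haplotype contigs of chromosome 6 duplicate, held 157 and 235 inducible peaks and 1 unmodified peak. The CTBP2 list of unmodified cells had 0 and 1 peaks in the same 2 places. How reads with several genomic matches were treated in each experiment is not given in the sources used here, and its part in these counts was not tested.

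The first of these sites by rank lay on X at 1367134 to 1369398, 19036 bases upstream of CSF2RA, the pseudoautosomal gene of the GM-CSF receptor alpha chain. It had fold enrichments of 72.8 and 108 in the inducible replicates, with ranks of 12 and 9. The matching stretch of Y was listed with 51.5 and 79.2. The sites near SPDYE9 and SPDYE10, members of a gene family repeated along chromosome 7, had 61.1 and 84.0 for SPDYE9. For SPDYE10 they were 52.6 and 73.5, and their central 50 bases occurred 9 and 8 times. The sites nearest to FAM27E3 and AC005488.1 had central bases that occurred 5 and 8 times. All 6 sites were called in both doxycycline EVI1 lists and both CTBP2 lists of inducible cells and not in the CTBP2 list of unmodified cells.

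By nearest TSS, the unmodified peaks fell to 9480 of 20136 protein-coding genes (47.1%), and for 7968 of these (84.1%) the strongest unmodified peak was called in both inducible lists. Only the 5′ end of the whole gene was used as its TSS, so a peak at an inner promoter counts as distal. The nearest gene need not be the one regulated. A peak named below without a distance can lie far from that start, as at MECOM (516327 bases) and RAG2 (852468 bases). The counts for the gene lists are read against these 2 shares. The lists and their members were chosen with results of these data already known.

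Of 20 transcription factors of stem and progenitor cells, 19 had an unmodified peak and for 16 of the 19 (84.2%) the strongest was in both inducible lists, near the share over all genes. The strongest peak of MECOM, the gene of EVI1 itself, lay in an annotated exon at chr3:168865027-168865616. Its fold enrichments were 27.3, 50.7 and 68.3, and its ranks 181, 81 and 105. An exonic peak 7481 bases into FLI1, an ETS factor, had 21.3, 32.0 and 37.3. A peak 90559 bases upstream of IKZF1, a lymphoid and stem cell factor, had 24.2, 23.4 and 32.1. These 3 ranked high in each list.

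For others the lists agreed on the site and not on its strength. At GFI1B, an erythroid and megakaryocytic repressor, the only unmodified peak lay 720 bases from the start, with fold enrichments of 8.41, 21.0 and 43.6 and ranks of 4731, 1788 and 584. At LYL1, a basic helix-loop-helix factor, the strongest peak had 16.6, 6.33 and 9.34. At MYB, a factor that keeps progenitors dividing, the peak 142060 bases from the start had 12.9, 18.3 and 3.90, and its rank in replicate 2 was 60043. GATA2, which loses an enhancer to EVI1 in these rearrangements, had a weak peak 91404 bases upstream, with 6.45, 5.03 and 5.19. The other 9, TAL1, LMO2, GFI1, ETV6, HHEX, HLF, PRDM16, HOXA9 and BCL11A, had unmodified fold enrichments from 5.54 to 16.5.

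RUNX1 had no unmodified peak by nearest TSS. For ERG, SPI1 and MEIS1 the strongest unmodified peak was in neither inducible list. ERG, an ETS factor, had fold enrichment 6.29 at that peak, and 5 of its 7 peaks were called in both lists. SPI1, the myeloid factor PU.1, had 5.75 at that peak and 2 of 4 peaks in both. MEIS1, a HOX partner, had 10.3 and 6 of 8. So each of these genes still kept reproduced peaks.

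Among 10 genes named in earlier work as EVI1 targets, 3 of which (GATA2, SPI1 and ERG) are also in the first list, 8 had an unmodified peak and the strongest was in both inducible lists for 4 of the 8. ADGRG1, an adhesion receptor of leukaemic stem cells, had 19.2, 13.2 and 23.4 at its strongest peak, and 8 of 8 peaks were in both lists. CEBPA, the granulocytic master regulator, had 15.9, 24.2 and 32.6 at a peak 28236 bases from its start. ITGA6, an integrin subunit, had 18.8, 17.3 and 11.8 at a peak 146339 bases upstream of its start. For ZBTB16, a zinc finger repressor, the strongest peak had 12.5 and 8.52 and was absent from replicate 2. MS4A3 had no unmodified peak.

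Of 20 genes of neutrophil and monocyte differentiation, 13 had an unmodified peak and all 13 were reproduced in both inducible lists at their strongest peak. The median rank of their strongest peak was 1240, against 7346 over all genes with a peak. It was 2042 for the TGF-beta and SMAD list, 2124 for the growth factor receptors and 2674 for the stem and progenitor factors. For the earlier EVI1 targets it was 5302, and for the CTBP complex 6666. Ribosomal, lymphoid, and erythroid and megakaryocyte genes had 8963, 9002 and 10015. A gene with more peaks has more chances of a high rank, and the number of peaks was not adjusted for. CEBPB, a factor of emergency granulopoiesis, had 28.3, 19.9 and 29.0 at its strongest peak, 147886 bases from its start. Of its peaks, 12 of 12 were in both lists. MPO, the granule enzyme myeloperoxidase, had 27.6, 36.7 and 48.8 at its single peak, 951 bases upstream of the start. CSF3R, the G-CSF receptor, had 19.7, 22.3 and 29.0 at a peak 252803 bases upstream of its start.

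Of 20 erythroid and megakaryocyte genes, 10 had a peak and 9 of these were reproduced. Among the strongest were ANK1 (10.3, 9.11 and 7.78), the red cell ankyrin, and VWF (10.3, 19.5 and 7.25), the von Willebrand factor. Of 14 blood growth factor receptors, 9 had a peak and 8 were reproduced, led by CSF3R, IL6R (12.3, 15.6 and 28.5) and CSF1R (12.5, 21.4 and 44.7). IL7R, at 6.32, was the exception. Of 20 lymphoid genes, 13 had a peak and 9 were reproduced (69.2%), led by NOTCH1, a receptor that directs T cell fate, at 34.1, 31.9 and 63.8 and CD3E, a chain of the T cell receptor complex, at 15.4, 23.4 and 34.6. GATA3, a T cell factor and the third by strength, had 11.6 and 6.37 and was absent from replicate 2, and PAX5, RAG2 and IL7R had their strongest peak in neither list, at 42.6 to 44.6% G or C.

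Of 15 genes of the CTBP corepressor complex, 12 had a peak and all 12 were reproduced. Among the strongest were ZEB2 (21.7, 31.3 and 16.1), at 183044 bases upstream of its start, and ZNF217 (12.82, 20.42 and 22.04), at 141558 bases upstream. Both are zinc finger repressors that bind CTBP. CTBP2 had a peak 4 bases upstream of its start, with 11.6, 12.5 and 21.0. Of 20 genes of the TGF-beta and SMAD pathway, 16 had a peak and 15 were reproduced. TGFBR1, the type I receptor, had 34.9, 23.5 and 19.8, SMAD6, an inhibitory SMAD, had 26.1, 26.7 and 26.4, and SKI, a SMAD corepressor, had 16.1, 30.6 and 46.5. TGFBR2, the type II receptor, was the exception, with 12.1 and 7.74 and no peak in replicate 2. Only 1 of its 7 unmodified peaks was in both lists.

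The 82 cytosolic ribosomal protein genes served as a list of ubiquitous genes. Of these, 42 had a peak (51.2%), 40 of the 42 were reproduced (95.2%), and for 23 the strongest peak was within 1 kb of the start. The strongest were RPLP1 (46.9, 32.9 and 44.2), RPS23 (25.7, 42.6 and 19.3) and RPS14 (16.3, 30.4 and 17.5). Their peaks lay 306363, 139884 and 4477 bases from the start. RPL36 and RPL41 had their strongest peak in neither list.

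Sites called in all 3 lists had 8502 genes as their nearest, with a median of 1 site a gene, and 46 genes had at least 10. TMEM121 had the most, 29, over chr14:106033213-107253985, a span that holds 168 annotated immunoglobulin heavy chain segments, which were not counted as protein-coding. SMAD7, an inhibitor of TGF-beta signalling, had 21. BCOR, a corepressor of BCL6, and ID2, an inhibitor of helix-loop-helix factors, had 20 each. SEPTIN9 had 18, ENSG00000284895 had 17 and ZMIZ1 had 15. All unmodified peaks of SMAD7, BCOR and ENSG00000284895 were in at least 1 inducible list, 26, 26 and 18 peaks. The share called in both lists by chromosome ranged from 70.0% on chromosome 4 to 91.8% on chromosome 19, with the mean GC content of the summits at 54.5 and 59.4%, leaving out Y with 10 peaks.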

How the data were processed

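EVI1 ChIP-seq peaks of unmodified MUTZ3 cells (1 list) and of untreated MUTZ3 cells with inducible 4xPLDLS (2 lists) were compared. Per the labels and the study's methods, the authors used bcl2fastq 1.8.4, aligned reads to hg19 with Bowtie 1.1.1, called narrow peaks per library against an input with MACS2 2.1.2 and made tracks with deepTools 3.5.1. The deposited lists give each peak's position, summit, fold enrichment over background (a ratio), −log10 p-value and −log10 q-value, and an integer score that was not used. They hold no read counts, so depth is unknown.

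Peaks on haplotype contigs (0, 821 and 1186 in unmodified cells, inducible replicate 1 and replicate 2), on other unplaced sequence (18, 115 and 265) and on chromosome 6 from 28.5 to 33.5 Mb (1, 157 and 235) were removed. A pair of peaks was shared if it overlapped by 1 base, and the overlapping peak of highest fold enrichment gave the value. TSS, exons and introns came from GENCODE 44 lifted to GRCh37, protein-coding genes only. Sequence came from GRCh37, whose Y pseudoautosomal bases are masked. Intervals are Wilson 95% intervals. Overlaps, merging and copy counts were tested on simulated data and the overlap step against bedtools 2.31.1. Python 3.11.15, pandas 2.3.3, scipy 1.17.1 and pysam 0.24.0 were used.

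Sites were named by rule: the 8 strongest unmodified peaks in both inducible lists, the 6 strongest in neither, the 6 inducible-only sites with the best worse rank, the strongest unmodified peak of genes in 9 lists (all members of the first 2 lists, the strongest 3 of the others) and the 8 genes with most sites in all 3 lists. Some genes that this rule names are not reported here. Other genes were named after their values were seen. The members and lists were chosen with earlier results of these data known. Alternatives changed the q-value or fold enrichment minimum, the overlap, list size, ranking, the chromosome 6 region and the inducible replicates. No test between groups was run.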

Additional observations from a re-analysis of the deposited data

How the results depend on the processing

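Of 59 alternative values for 7 results, 24 moved by less than their error, 35 moved by more and 0 changed sign. A share cannot change sign, so the last count bears only on the differences. The error was the Wilson interval for the share in both inducible lists and for the share of inducible sites. For the other results it was the SD over the 2 inducible lists. The share of unmodified peaks in both inducible lists (81.1%) was 80.4% at a −log10 q-value of at least 5, 74.7% at a fold enrichment of at least 5, 79.6% where the overlap had to cover 50% of the shorter peak, 61.6% with summits within 200 bases and 57.9% at equal list size. Leaving out 1 inducible replicate gave 83.2 to 88.9%. This is the share in the list that is left, which cannot be lower than the share in both. The mean share in an inducible list (86.0%) was 81.2% at a fold enrichment of at least 5, 70.6% by summits and 67.3% at equal size. Leaving out 1 replicate gave back the values that form this mean, 83.2 and 88.9%, which lie within its SD by construction. The share of inducible sites called in unmodified cells (38.7%) was 38.1% with the q-value minimum, 37.4% with the fold minimum and 35.6% by summits. It was 66.4% at equal size and 40.8% for sites with 1 copy. Leaving out 1 replicate gave 22.2 to 33.8%, the lower value without replicate 1. Those values count all peaks of the list that is left, not sites of both lists. The difference between experiments and replicates (-12.7 points) was -17.3 with the fold minimum and -15.5 by summits. It cannot be computed with 1 replicate.

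The difference between the strongest and weakest quintiles (5.68 points) was 21.0 with the fold minimum, 27.2 by summits, 24.4 at equal size, 17.2 by the −log10 p-value, 9.66 averaged over quintiles of GC content and 3.07 to 7.40 leaving out 1 replicate, the lower value without replicate 1. The TSS difference (21.2 points) was 4.10 by summits, 13.1 averaged over GC quintiles and 12.1 to 19.9 leaving out 1 replicate, the lower value without replicate 2. The width difference (30.4 points) was 33.4, 43.6, 32.0, 34.6 and 49.4 with the q-value minimum, the fold minimum, 50% overlap, summits and equal size, 27.1 averaged over GC quintiles and 24.5 to 25.9 leaving out 1 replicate. In each of these differences, leaving out 1 replicate replaced the share in both lists by the share in the list that is left. The cause of these shifts was not tested. The averages over GC quintiles and the restriction to sites with 1 copy were chosen after seeing the data. Ranking by p-value bears only on the results that use ranks, and equal size is part of the difference between experiments and replicates. No paired analysis was possible because the unmodified cells had 1 list and no test was run. Depth, which the lists do not give, limits every share.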
